A study of Mus musculus with 2 samples.

Results

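Axon guidance molecules are the ligands and receptors that steer growing neurons, and blood vessels use many of them for sprouting, sorting and barrier control. The 10 genes described here encode the semaphorin receptors Plxnc1 and Plxnd1, the netrin-family receptor Unc5b, the endothelial roundabout receptor Robo4, the semaphorins Sema3g and Sema6a, the ephrins Efnb1 and Efnb2, the Eph receptor Ephb4, and the netrin Ntn4. These genes, like the gene lists used below, were chosen by symbol with earlier results of these data known. Counts of them set beside shares of all genes are therefore descriptions. All 10 were found among the 31053 genes of both count matrices. Transcripts were counted in single liver endothelial cells, taken by a sort for CD31+ cells without DAPI or CD45 staining, from 1 adult Gimap5sph/+ mouse and 1 adult Gimap5sph/sph mouse. Both mice had a C57BL/6 background. Every cell measured carried at least 1 sphinx (sph) allele of Gimap5, since the heterozygote served as the comparison animal and no wild-type animal was analysed here. Gimap5 encodes a small GTPase of lymphocytes and endothelium. Each mouse gave 1 droplet library. In sph/+ these were 13136 barcodes and 64460283 unique molecular identifiers (UMIs, which count RNA molecules), in sph/sph 16386 and 68983780. With 1 mouse a genotype there was no test between genotypes. Differences below are between these libraries: a difference of genotype and one of library cannot be told apart. Intervals in parentheses are 95% exact intervals and cover counting error only.

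As background, plexins are the signalling receptors of semaphorins, often together with neuropilins, and the pair of ephrin-B2 and EphB4 marks arterial against venous endothelium. In the liver, blood flows from the portal tract through the sinusoids to the central vein, and liver sinusoidal endothelial cells (LSECs) differ in expression along that path, which is called zonation. Continuous capillaries, unlike sinusoids, have a full basement membrane and no fenestrae.

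Filters left 10980 sph/+ cells (median 4420 UMIs) and 11321 sph/sph cells (median 3894 UMIs). Of these, 10141 and 10747 lay in clusters with endothelial markers and without leading markers of another cell type, and are called endothelial-like. Pecam1, which encodes CD31, was at 723 and 1045 UMIs per 1000000 UMIs of the group (CPM), and Ptprc, which encodes CD45, had 3 UMIs in each library. Gimap5 itself was at 105 and 104 CPM. In sph/+, 9461 cells were LSEC-like, 85 continuous vascular-like and 401 formed an unnamed cluster led by Nrg1 and Adgrg6. In sph/sph, 1 cell was LSEC-like, 8000 were continuous vascular-like, 1158 lymphatic-like, 712 cycling and 876 unnamed. Of the unnamed cells, 875 formed a cluster led by Sprr2b and Tubb3, with 9 LSEC and 10 continuous markers detected. It had enough LSEC markers for the LSEC-like class, which also required under 10 continuous markers. That bound was set after the data were seen, and the count of 1 LSEC-like cell depends on it. The libraries thus stood apart almost entirely: 25 of 28 clusters held over 95% of their cells from 1 library. They shared 30 barcodes, 19 of them among kept cells.

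The promoters of 4 members are shown because these genes carry the patterns described below: Efnb1 and Efnb2 were both portal in sph/+, Ephb4 leaned the other way, and Unc5b followed Efnb2 across sph/sph clusters. Each run is the 250 bases before the RefSeq start (GRCm38.p6), read 5′ to 3′ on the gene's strand. Capitals mark matches, on either strand, to any of 4 motifs. The core of RBPJ sites was searched as TGGGAA, which holds the ETS core GGAA. The motif of GATA factors was searched as AGATAA, that of SOX factors as ACAAT and that of SP and KLF factors as GGGCGG. The RefSeq table held 9 of the 10 members.
Efnb1, chrX:99135811-99136060, plus strand: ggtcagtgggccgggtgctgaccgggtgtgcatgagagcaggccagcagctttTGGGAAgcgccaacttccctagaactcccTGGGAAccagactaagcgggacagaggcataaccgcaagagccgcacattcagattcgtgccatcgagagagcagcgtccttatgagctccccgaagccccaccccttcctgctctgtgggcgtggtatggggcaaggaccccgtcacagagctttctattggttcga
Efnb2, chr8:8661243-8661492, minus strand: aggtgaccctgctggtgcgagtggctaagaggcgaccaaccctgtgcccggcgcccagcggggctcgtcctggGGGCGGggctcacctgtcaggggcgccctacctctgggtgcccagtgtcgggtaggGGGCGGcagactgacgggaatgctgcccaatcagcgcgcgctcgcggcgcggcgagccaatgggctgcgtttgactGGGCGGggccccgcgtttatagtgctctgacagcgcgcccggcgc
Ephb4, chr5:137349859-137350108, plus strand: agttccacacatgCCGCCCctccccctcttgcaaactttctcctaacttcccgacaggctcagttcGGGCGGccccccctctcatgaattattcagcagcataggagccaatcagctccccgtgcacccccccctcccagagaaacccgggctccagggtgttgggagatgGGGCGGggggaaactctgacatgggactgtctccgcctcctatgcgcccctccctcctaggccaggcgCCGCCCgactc
Unc5b, chr10:60831582-60831831, minus strand: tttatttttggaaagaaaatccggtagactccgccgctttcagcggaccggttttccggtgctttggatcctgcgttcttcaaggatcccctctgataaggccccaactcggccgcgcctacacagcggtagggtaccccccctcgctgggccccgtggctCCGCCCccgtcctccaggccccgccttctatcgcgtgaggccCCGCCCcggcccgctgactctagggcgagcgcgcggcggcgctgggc
TGGGAA occurred 2 times in the Efnb1 window, 197 and 168 bases before the start, and was not among the letters of the other 3 windows. GGGCGG occurred 3 times in the Efnb2 window, 4 times in that of Ephb4 and 2 times in that of Unc5b. AGATAA and ACAAT were in none of the 4, and other forms of the GATA and SOX motifs were not searched. Over the same windows of all 32851 promoters in the table, the RBPJ core was in 21.6%, the SP and KLF motif in 32.7%, the SOX motif in 27.7% and the GATA motif in 9.99%. No match or absence of one was set against the levels.

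The first question was how the genes were distributed along the sinusoid of the sph/+ liver. The 9461 LSEC-like cells were ordered by a score of 7 portal minus 9 central landmark genes, none of them a member, and cut into 5 layers of 1892 or 1893 cells. Layer 1 is the central-most and layer 5 the portal-most. The score is a continuous range, and 2567 cells (27.1%) lay within 0.1 SD of a boundary between layers. Median depth ran from 3919 to 4513 UMIs a cell over the layers. Of 8 measured members, 4 were at least 2-fold higher in the portal-most layer and 0 at least 2-fold lower. Over all 6936 genes measured in either end layer, 3.69% passed 2-fold, 1.47% being 2-fold higher and 2.22% 2-fold lower.

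**Figure D1:**
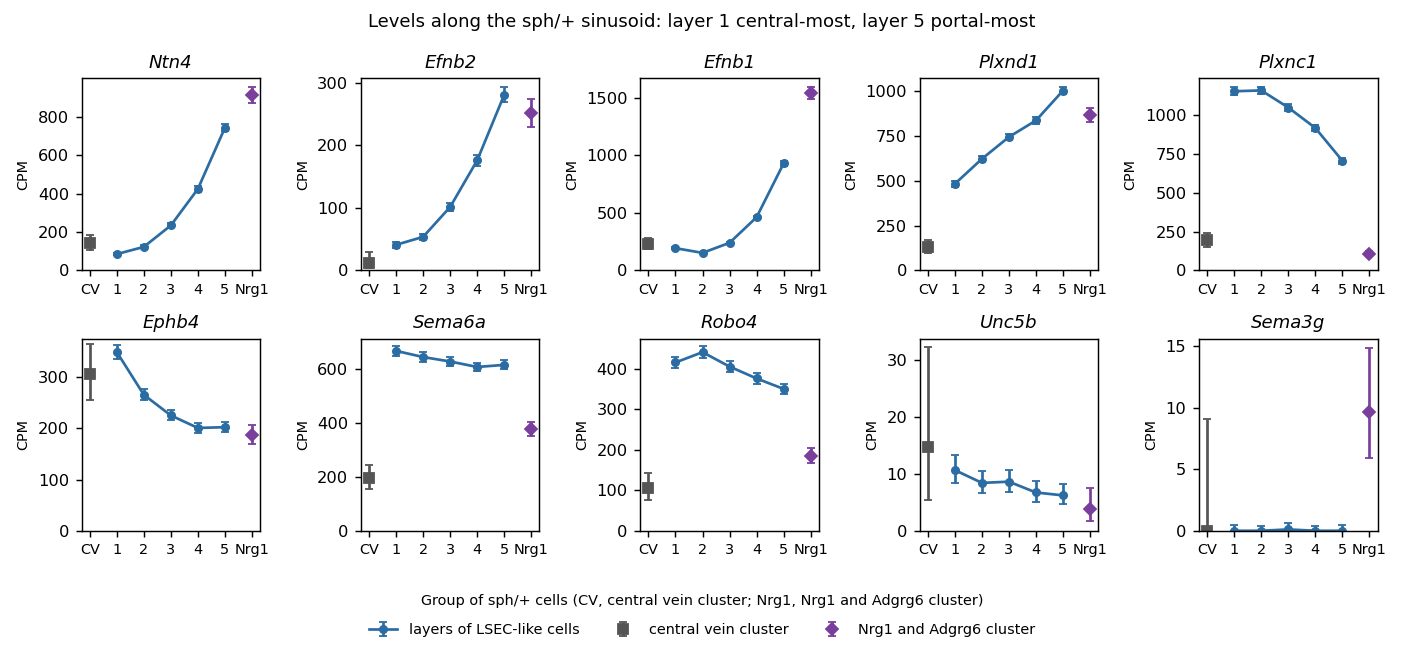
Level of each gene in CPM (vertical axis, from 0) in 5 layers of sph/+ LSEC-like cells from central to portal, with the central vein cluster at the left and the Nrg1 and Adgrg6 cluster at the right. Bars are exact Poisson intervals. Ntn4, Efnb2, Efnb1 and Plxnd1 are highest in layer 5 among the layers, and Ephb4 is highest in layer 1.

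Ntn4, a laminin-related netrin of basement membranes, had the steepest profile. Its levels from layer 1 to layer 5 were 84.9, 122, 234, 424 and 742 CPM. The portal-most layer was 8.74-fold higher than the central-most (8.06 to 9.49), and each layer was above the one before. Efnb2, the ephrin of arterial endothelium, was at 41.0, 53.8, 102, 176 and 281 CPM, a 6.86-fold difference (6.09 to 7.74). It too was higher at every step toward the portal side.

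Efnb1, the second transmembrane ephrin-B, was at 194, 153, 240, 463 and 931 CPM. The ends differed 4.81-fold (4.55 to 5.08), but the lowest level was in layer 2, not in layer 1. Plxnd1, the receptor of Sema3e in vessels, was at 482, 621, 743, 835 and 1002 CPM. It was 2.08-fold higher at the portal end (1.998 to 2.16), close to the bound, and with 3 layers its log2 ratio was 0.81, under 2-fold. Thus both ephrin-Bs, the netrin and plexin-D1 were portal-high in these cells.

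Ephb4, the receptor of Efnb2, had the opposite lean. It was at 349, 266, 225, 201 and 202 CPM, 1.73-fold lower in the portal-most layer (1.62 to 1.84), with layers 4 and 5 within each other's intervals. Plxnc1, the receptor of the membrane-anchored semaphorin Sema7a, was at 1152, 1157, 1047, 916 and 705 CPM, 1.63-fold lower at the portal end (1.58 to 1.69). Neither reached 2-fold, although between the 2 clusters at the ends of the score the log2 ratio of Plxnc1 was -1.14. Percentiles place them: 3.47% of measured genes had a lower ratio than Ephb4 and 4.04% a lower ratio than Plxnc1.

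Sema6a, a transmembrane semaphorin that binds plexin-A2 and plexin-A4, was nearly level, at 669, 646, 629, 609 and 617 CPM. Robo4, which restrains leakage of vessels, was at 415, 441, 405, 376 and 350 CPM. Their log2 ratios of portal over central were -0.12 and -0.25. The other 2 members were not measured in these cells. Unc5b was at 6.22 to 10.7 CPM, and Sema3g had UMIs in 1 layer alone, at 0.109 CPM. At 2000 UMIs a cell, 1.31% to 1.70% of LSEC-like cells had an Unc5b UMI. In 173 sph/+ cells marked as cholangiocytes the share was 4.05% (1.64 to 8.16).

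Shares of cells with a UMI, thinned to 2000 UMIs a cell, gave the same order of the layers as the levels for Ntn4 and Efnb2. From layer 1 to layer 5 they were 14.3%, 18.2%, 35.5%, 51.2% and 70.8% for Ntn4. For Efnb2 they were 7.78%, 10.2%, 17.5%, 29.3% and 40.9%. For Ephb4 they were 52.0%, 40.8%, 35.5%, 33.2% and 33.0%, with layers 4 and 5 close in shares as in levels. Within single LSEC-like cells at that depth, Efnb1 was found in 53.5% of cells with an Ntn4 UMI (51.9 to 55.2) and in 32.4% of the others (31.2 to 33.7). Efnb2 was found in 19.2% of cells with an Ephb4 UMI (17.9 to 20.5) and in 22.6% of the others (21.5 to 23.8).

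Markers of 2 other cell types also differed along the layers. The summed level of 8 hepatocyte markers was 39.1, 60.5, 78.5, 104 and 131 CPM from layer 1 to layer 5, and that of 9 Kupffer and myeloid markers was 51.7 CPM in layer 1 and 12.7 CPM in layer 5. Their part in the profiles was not tested.

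No sph/+ cell group free of endothelial transcripts was at hand to measure the background of the shares. The 175 sph/+ cells marked as cholangiocytes, with a median of 10792 UMIs, had 12 of 13 pan-endothelial and 12 of 12 LSEC markers detected. At 2000 UMIs a cell, 15.6% of them had an Ntn4 UMI (10.5 to 21.9) and 6.94% an Efnb2 UMI (3.64 to 11.8), against 14.3% and 7.78% in layer 1. These values do not separate free RNA from endothelial RNA in the same droplets, and how much of the central-most levels is background was not tested.

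Outside the layers were 2 small groups of sph/+ cells. The 401 cells led by Nrg1 and Adgrg6 carried 11 of 12 LSEC and 10 of 15 continuous markers and were left unnamed. Of the portal landmarks, Adgrg6, Clu and Ltbp4 were above layer 5 in them, and Dll4, Msr1, Adam23 and Cd36 below. The central landmarks Thbd and Cdh13 were at 278 and 198 CPM, against 80.4 and 12.6 CPM in layer 5, while Wnt2, Kit and Gatm were below layer 5. The place of these cells along the sinusoid was not tested. In this cluster Efnb1 was at 1543 CPM (1490 to 1597) and Ntn4 at 913 CPM (872 to 955), above layer 5 in both cases, while Efnb2 was at 251 CPM (230 to 274). Plxnc1 was at 108 CPM (94.7 to 124) there, below every layer. Robo4 at 185 CPM and Sema6a at 378 CPM were also below every layer. Sema3g, a secreted semaphorin of arterial endothelium, had 22 UMIs in all sph/+ endothelial-like cells, of which 90.9% lay in this cluster. Its level there was 9.63 CPM (5.89 to 14.9).

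The other group, 79 sph/+ cells led by Rspo3 and Inhba, had all 5 central vein markers detected and is called central vein-like. In it Ephb4 was at 306 CPM, Efnb2 at 12.3 CPM from 5 UMIs, and Plxnd1 at 131 CPM. Plxnd1, Plxnc1 (193 CPM), Robo4 (106 CPM) and Sema6a (195 CPM) were each below all 5 layers in these cells.

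The next comparison set the libraries side by side over all endothelial-like cells. All 10 members were measured, at 20 CPM or more in either library. Of them, 2 had an sph/sph level higher by 2-fold or more, 4 had one lower by 2-fold or more, and 4 within 2-fold. Unc5b and Sema3g reached 20 CPM in sph/sph alone, and Plxnc1 and Ntn4 in sph/+ alone. Over all 7464 measured genes 21.6% passed 2-fold, 11.0% being higher and 10.6% lower. The median log2 ratio was -0.87 for the members and -0.07 for all measured genes. In such sums, fewer cells of a type and fewer transcripts per cell cannot be told apart, and the 2 libraries hold different endothelial classes.

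**Figure D2:**
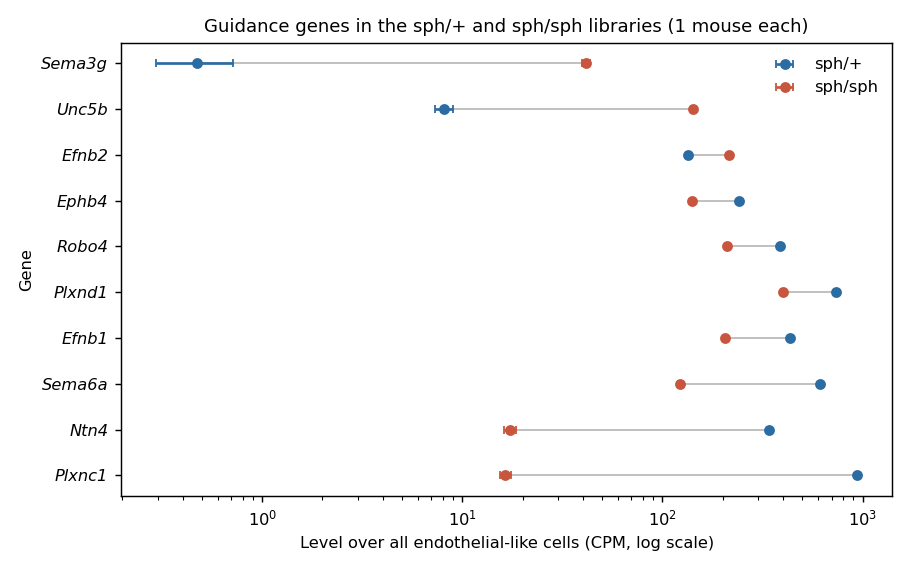
Level of each of the 10 genes in CPM (log axis) over all endothelial-like cells of the sph/+ and the sph/sph library, with exact Poisson intervals. Sema3g, Unc5b and Efnb2 sit to the right in sph/sph, and Plxnc1, Ntn4 and Sema6a sit farthest to the left of their sph/+ values.

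Plxnc1 had the lowest ratio. Its sph/+ level was 933 CPM (925 to 942), its sph/sph level 16.4 CPM (15.3 to 17.6), which is 56.8-fold lower (53.1 to 60.9), a log2 ratio of -5.74. Only 0.134% of measured genes had a lower ratio. What was left in sph/sph lay mostly outside the continuous class: 72.3% of its sph/sph UMIs came from the 8.15% of cells in unnamed clusters, and without unnamed cells of either library the log2 ratio was -7.36. Ntn4 was at 341 CPM and 17.3 CPM, 19.7-fold lower (18.4 to 21.1). Sema6a was at 611 CPM and 122 CPM, 5.0-fold lower (4.86 to 5.14).

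Efnb1 had an sph/+ level of 436 CPM and an sph/sph level of 206 CPM, which is 2.12-fold lower (2.07 to 2.17). That call rested on the lymphatic-like cells, in which Efnb1 was low: without them the log2 ratio was -0.73 in place of -1.08, and with cells weighted equally it was -0.88. Efnb1 is X-linked, and Xist had 3 and 5 UMIs in the 2 libraries.

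The 4 members within 2-fold were Plxnd1, at 734 and 399 CPM, Robo4, at 385 and 211 CPM, Ephb4, at 242 and 141 CPM, and Efnb2, at 134 and 216 CPM. Their log2 ratios of sph/sph over sph/+ were -0.88, -0.86, -0.77 and 0.68. Efnb2 alone of these 4 was higher in sph/sph, and in continuous vascular-like sph/sph cells against LSEC-like sph/+ cells its log2 ratio was 1.0, at the bound of 2-fold.

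Unc5b, the netrin-family receptor of sprouting and arterial endothelium, had an sph/+ level of 8.12 CPM and an sph/sph level of 143 CPM, which is 17.6-fold higher (15.8 to 19.5). Sema3g was at 0.470 CPM, from 22 UMIs, and 41.6 CPM, from 2142 UMIs. That is 88.4-fold higher (58.2 to 141), and 88.8% of its sph/sph UMIs came from continuous vascular-like cells.

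Marker lists of other cell types also differed between the endothelial-like cells of the libraries. The summed level of 10 stellate and fibroblast markers was 39.6 CPM over sph/+ cells against 381 CPM over sph/sph cells, with 0 of the 10 at 0 in either. Hepatocyte markers were at 89.9 and 137 CPM, 6 erythroid markers at 0.257 and 133 CPM (2 and 0 of them at 0), and 4 mesothelial markers at 0.107 and 130 CPM (2 and 1 at 0). Kupffer and myeloid markers were lower in sph/sph, at 26.4 and 8.54 CPM, with 0 of 9 at 0 in either. Some listed markers were leading genes of endothelial clusters. Wt1, of the mesothelial list, was one in the Hspa1a and Wt1 cluster. Dcn, of the stellate and fibroblast list, was one in the lymphatic-like cluster. The sums thus do not separate RNA of other cell types from expression by endothelial-like cells. The part of these lists in the members' ratios was not tested. The 9 markers of angiogenic tip cells summed to 258 and 1756 CPM, and the 10 arterial markers to 732 and 752 CPM.

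A direct comparison within 1 kind of cell was possible only for the central vein-like cluster, with 79 sph/+ and 156 sph/sph cells, the single endothelial cluster in which both libraries had 25 or more cells. There 2 members passed 2-fold, and 23.6% of 7423 measured genes did, so the count of members was near the share over all genes. Efnb2 and Sema3g were under 20 CPM in both libraries in this cluster and thus not measured. Plxnd1 had 53 UMIs (131 CPM) in the sph/+ cells and 328 UMIs (303 CPM) in the sph/sph cells, 2.31-fold higher (1.73 to 3.15), the reverse of its direction over all endothelial-like cells. Ntn4 was at 141 CPM (57 UMIs) and 51.7 CPM (56 UMIs), 2.72-fold lower (1.85 to 4.01). Plxnc1 kept 135 CPM in sph/sph against 193 CPM, 1.43-fold lower (1.07 to 1.89). Sema6a was 1.42-fold lower (1.07 to 1.88) and Ephb4 1.32-fold lower (1.05 to 1.64). Intervals of the ratios of Efnb1, Efnb2, Unc5b and Robo4 included 1 in this cluster, and with 5 to 92 sph/+ UMIs for these genes smaller differences were not detectable. Unc5b was at 14.8 and 21.2 CPM there, the latter close to its 19.0 CPM (6.18 to 44.4) in the 118 sph/sph cells led by Saa1 and Saa2. These cells are marked as hepatocytes, had 2 of 13 pan-endothelial markers detected and are set beside the endothelial clusters of sph/sph as a comparison. Another 325 sph/sph cells with hepatocyte markers had 12 of 13 pan-endothelial markers detected and were not used for that. Efnb1 and Sema3g were lower in some endothelial clusters than in the Saa1 and Saa2 cells, as given below, so levels in those cells are no lower limit. How much of the Unc5b of central vein-like cells is free RNA was not tested. The higher Unc5b of the sph/sph library was not seen in central vein-like cells at this depth.

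The endothelial-like sph/sph cells fell into 11 clusters of at least 50 cells, named here by their leading genes. The members, kept out of the clustering, were at least 2-fold apart between the highest and the lowest cluster for 9 of 10, and the same held for 73.2% of 8734 genes. These values describe 1 library, in which cells are not replicates.

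**Figure D3:**
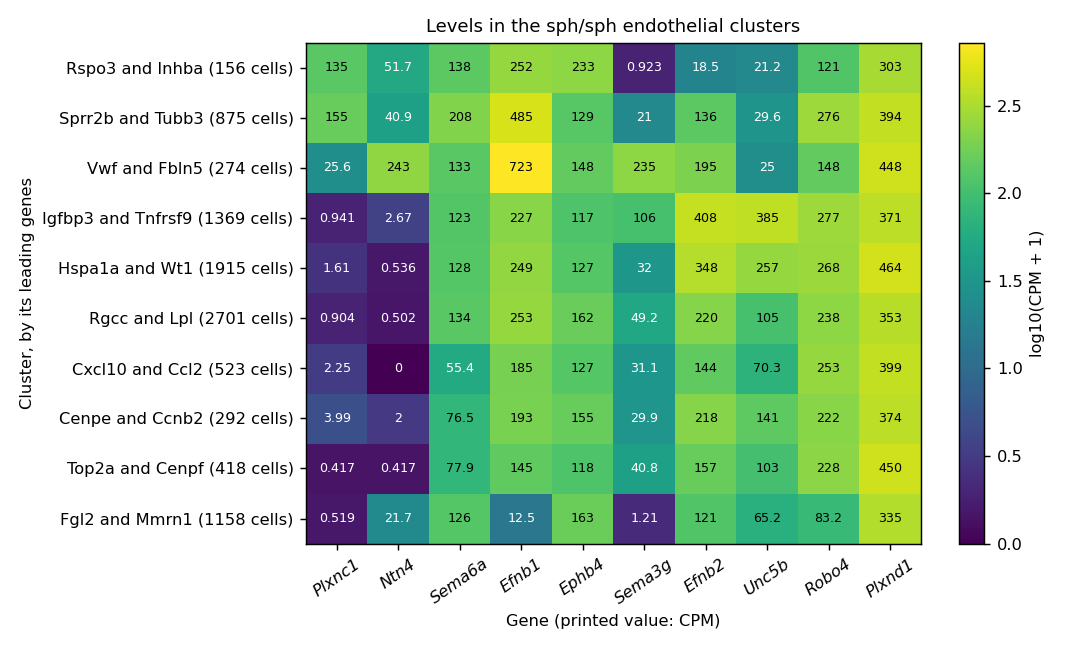
Level of each gene (columns) in 10 of the 11 endothelial clusters of sph/sph (rows, with their number of cells), coloured by log10(CPM + 1) with the CPM printed in each cell of the plot. Plxnc1 and Ntn4 are near 0 in most rows, Efnb2 and Unc5b peak in the Igfbp3 and Tnfrsf9 row, and Efnb1 is lowest in the Fgl2 and Mmrn1 row.

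Unc5b and Efnb2 were highest in the same cluster, 1369 continuous vascular-like cells led by Igfbp3 and Tnfrsf9. Unc5b was at 385 CPM there, at 257 CPM in cells led by Hspa1a and Wt1 and at 105 CPM in those led by Rgcc and Lpl. Its lowest levels were 21.2 CPM in central vein-like, 25 CPM in Vwf and Fbln5 and 29.6 CPM in Sprr2b and Tubb3 cells, whose intervals overlap. Efnb2 was at 408 CPM in the Igfbp3 cluster, then at 348 CPM in the Hspa1a cluster, and at 18.5 CPM in central vein-like cells. Highest and lowest differed 22.1-fold for Efnb2 (14.3 to 36.2) and 18.1-fold for Unc5b (12.1 to 28.7).

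Over the 11 clusters the levels of Efnb2 and Unc5b, as log2(CPM + 20), had Pearson's r = 0.77. Those of Efnb2 and Ephb4 had r = -0.73, and those of Plxnd1 and Ephb4 r = -0.81. Among all pairs of members these were some of the largest in absolute value. Ntn4 and Unc5b had r = -0.74, and Plxnc1 and Unc5b r = -0.72. Over the 20 endothelial groups of both libraries with at least 50 cells, r was 0.50 for Efnb2 and Unc5b. It was -0.68 for Efnb2 and Ephb4 and -0.02 for Plxnd1 and Ephb4. The 11 clusters share 1 library and its free RNA, and these values are a description. The Vwf and Fbln5 cluster departed from the pair of Efnb2 and Unc5b, with Efnb2 at 195 CPM and Unc5b at 25 CPM. So did the 876 unnamed sph/sph cells, 875 of them led by Sprr2b and Tubb3, with Efnb2 at 137 CPM and Unc5b at 29.5 CPM. Lymphatic-like cells had Efnb2 at 121 CPM and Unc5b at 65.2 CPM. Among single continuous vascular-like cells thinned to 2000 UMIs, Efnb2 was found in 49.3% of cells with an Unc5b UMI (47.1 to 51.6) and in 32.2% of the others (31.0 to 33.5). For cells with an Ephb4 UMI the share with Efnb2 was 36.3% (34.0 to 38.7), and for the others 36.9% (35.7 to 38.2), so the inverse order over clusters was not seen between single cells of this class. In the Saa1 and Saa2 cells, with a median of 1778 UMIs against 3894 in the library, the shares at 2000 UMIs were 6.67% for Efnb2 and 6.67% for Unc5b, over 45 cells.

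**Figure D4:**
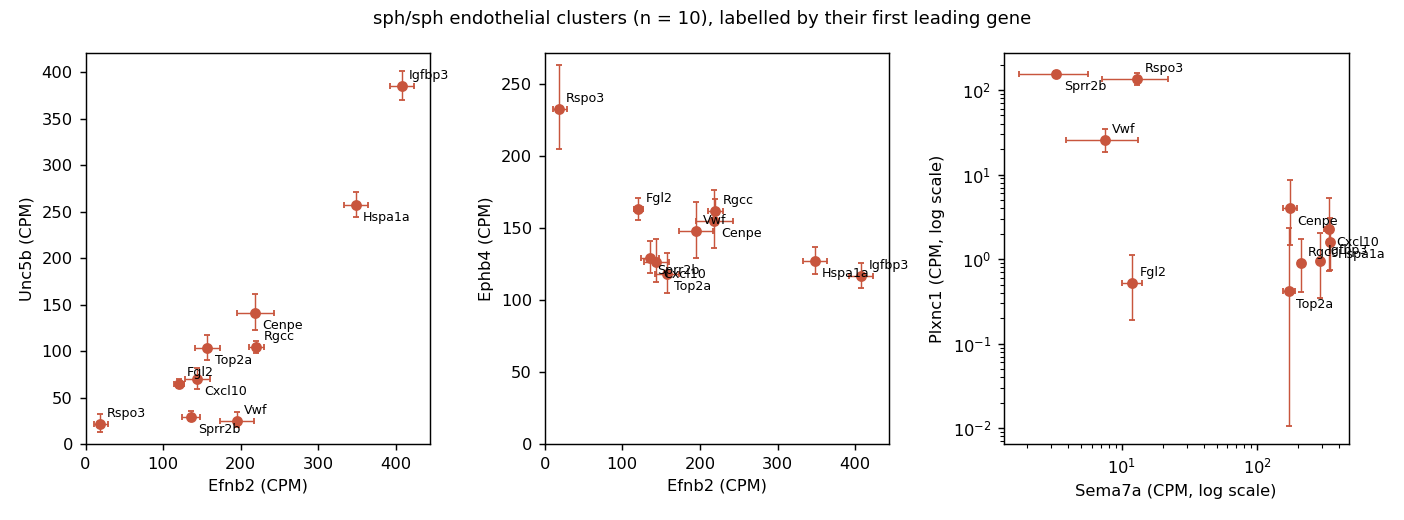
Levels in CPM of Unc5b against Efnb2, Ephb4 against Efnb2 and, on log axes, Plxnc1 against Sema7a in 10 of the 11 endothelial clusters of sph/sph, with exact Poisson intervals. The cluster labelled Igfbp3 is highest in both Efnb2 and Unc5b, and the clusters highest in Plxnc1 are low in Sema7a.

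Finer clustering set apart the cells highest in these genes. At resolution 2.0 a cluster of 324 cells led by Igfbp3, Esm1 and Gja5, with 7 of 10 arterial and 9 of 9 tip markers detected, had Efnb2 at 765 CPM (720 to 813), Unc5b at 693 CPM (650 to 739) and Sema3g at 279 CPM (252 to 309). Ephb4 was at 84.2 CPM (69.7 to 101) in it. With sph/sph clustered alone, 98 cells with 9 of 10 arterial markers detected had Sema3g and Efnb2 both at 570 CPM (505 to 640) and Unc5b at 424 CPM (369 to 486). The 838 cells led by Hspa1a and Esm1, with 8 tip markers and 3 arterial markers, had Unc5b at 450 CPM, Efnb2 at 536 CPM and Sema3g at 37.6 CPM. Cells high in Efnb2 and Unc5b thus included some with far less Sema3g than the 98 cells, near its 41.6 CPM over all sph/sph endothelial-like cells.

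Sema3g was highest in the Vwf and Fbln5 cluster, at 235 CPM, then in the Igfbp3 cluster at 106 CPM. The 274 cells of the Vwf and Fbln5 cluster had 8 of 10 arterial and 6 of 8 venous markers detected. Sema3g was thus highest in cells with markers of both lists. Sema3g was at 0.923 CPM in central vein-like and 1.21 CPM in lymphatic-like cells, under its 11.4 CPM (2.36 to 33.4) in the Saa1 and Saa2 cells. Efnb1 was also highest in the Vwf and Fbln5 cluster, at 723 CPM, followed by the Sprr2b and Tubb3 cluster at 485 CPM. In the other continuous and cycling clusters Efnb1 was at 135 to 253 CPM. In lymphatic-like cells, led by Fgl2 and Mmrn1, it was at 12.5 CPM (10.6 to 14.7), 57.7-fold under the highest (48.5 to 69.1) and below its 41.9 CPM (20.9 to 75.0) in the Saa1 and Saa2 cells. Efnb2 was at 121 CPM in the same lymphatic-like cells, so the ephrin-Bs parted there.

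Ntn4 and Plxnc1 stayed detectable in few clusters. Ntn4 was at 243 CPM in Vwf and Fbln5 cells, 51.7 CPM in central vein-like, 40.9 CPM in Sprr2b and Tubb3 and 21.7 CPM in lymphatic-like cells. In the remaining 7 clusters it was at 0 to 2.67 CPM, and against the Cxcl10 and Ccl2 cluster, with 0 UMIs, the highest was at least 180-fold higher, taking 3 counts as the limit of that cluster. Plxnc1 was at 155 CPM in Sprr2b and Tubb3 cells and 135 CPM in central vein-like cells, which overlap, then at 25.6 CPM in Vwf and Fbln5 cells and at 0.381 to 3.99 CPM in the other 8. The Sprr2b and Tubb3 cluster met the numbers of both LSEC (9 of 12) and continuous (10 of 15) markers and was left unnamed. Sema6a was highest there too, at 208 CPM, and lowest in Cxcl10 and Ccl2 cells at 55.4 CPM, 3.76-fold apart (3.11 to 4.59).

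The other 3 members were more even. Ephb4 was highest in central vein-like cells at 233 CPM, and 163 CPM in lymphatic-like cells came next. Robo4 was at 277 CPM in the Igfbp3 cluster and 276 CPM in the Sprr2b cluster, with overlapping intervals, and lowest in lymphatic-like cells at 83.2 CPM. Plxnd1 was lowest in central vein-like cells at 303 CPM, and was the 1 member with less than 2-fold between its highest and lowest clusters.

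Other genes of these pathways came from a list of semaphorins, plexins and neuropilins, ephrins, Eph receptors, netrins and their receptors, slits and roundabouts, and FLRT proteins. Of 67 such genes in the matrices, 22 were measured in the library comparison, 5 at least 2-fold higher in sph/sph, 6 lower and 11 within 2-fold. Over all measured genes, as above, 11.0% were higher and 10.6% lower. The median log2 ratio of the list was -0.19. By family, 4 of 8 measured semaphorins were higher and 1 lower, and 2 of 6 plexins and neuropilins were lower and 0 higher. The 4 with the largest log2 ratios in absolute value were Sema7a at 7.30, Flrt1 at -4.71, Ephb1 at 4.68 and Sema3a at 4.56. Of the 1605 sph/sph UMIs of Sema3a, 1349 were in the lymphatic-like cells, at 117 CPM. It was at 0.626 to 12.9 CPM in the other sph/sph clusters, and sph/+ had 8 lymphatic-like cells.

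**Figure D5:**
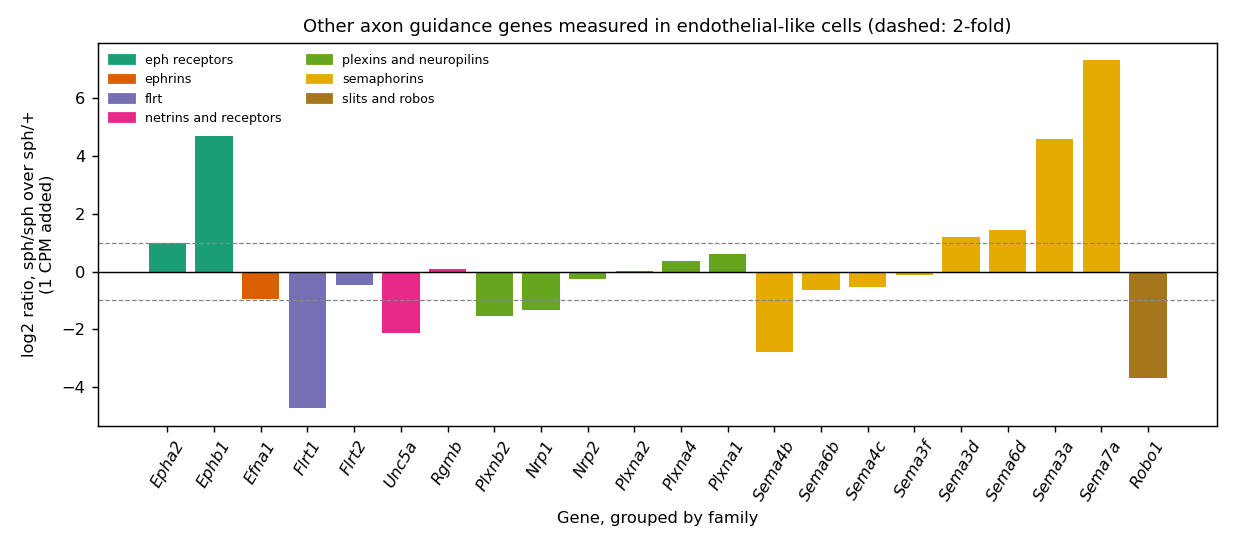
log2 ratio of sph/sph over sph/+ (1 CPM added to both) for the 22 other guidance genes measured, grouped and coloured by family, with dashed lines at 2-fold. Sema7a at 7.30 and Ephb1 at 4.68 are the highest, and Flrt1 at -4.71 and Robo1 at -3.66 the lowest.

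Sema7a, the ligand of Plxnc1, had 3 UMIs over all sph/+ cells against 8569 over sph/sph cells, where its level was 166 CPM, a ratio of 2593 (887 to 12575). Across the sph/sph clusters it was at 344 CPM in Hspa1a and Wt1, 335 CPM in Cxcl10 and Ccl2 and 290 CPM in Igfbp3 and Tnfrsf9 cells. In the 3 clusters that retained Plxnc1 it was at 3.29 CPM (Sprr2b and Tubb3), 12.9 CPM (central vein-like) and 7.51 CPM (Vwf and Fbln5). The lymphatic-like cells were low in both, with Sema7a at 11.9 CPM and Plxnc1 at 0.519 CPM. Ligand and receptor were thus each abundant in clusters and in a library where the other was low.

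Of 14 known partners of the members, 7 were measured in the library comparison. Nrp1, the co-receptor of class 3 semaphorins and VEGF, had levels of 1661 (sph/+) and 654 CPM (sph/sph), 2.54-fold lower, and at 13.4 CPM in lymphatic-like cells against 190 to 1081 CPM in the other sph/sph clusters. Nrp2, the co-receptor of Sema3g, was at 481 and 398 CPM. The Sema6a receptors Plxna2 and Plxna4 were at 185 and 187 CPM and at 51.3 and 66.9 CPM, and Plxna1 was at 19.6 and 30.5 CPM. None of these last 4 passed 2-fold. Flrt2, a membrane protein that can bind Unc5b, was at 71.7 and 52.1 CPM. In sph/sph it was at 313 CPM in Vwf and Fbln5 and 248 CPM in Sprr2b and Tubb3 cells, where Unc5b was at 25 and 29.6 CPM, and at 0.941 CPM in Igfbp3 and Tnfrsf9 cells, where Unc5b was highest.

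Between layers 1 and 5 of sph/+ all 6 measured partners were within 2-fold. Flrt2 was lower between the ends: from layer 1 to layer 5 it was at 131, 40.4, 30.5, 42.7 and 80.1 CPM. In all, 18 genes of the list were measured, 2 at least 2-fold higher in layer 5 than in layer 1, 1 lower and 15 within 2-fold. Of all measured genes 1.47% were higher and 2.22% lower. Sema3d, a secreted class 3 semaphorin, was at 35.4 CPM in layer 1 and 1.44 CPM in layer 5, 24.7-fold lower. Efna1, an ephrin of the A class, was at 62.1 and 148 CPM, and Flrt1 at 28.9 and 59.1 CPM. Plxna4 followed with a log2 ratio of -0.74. By sph/+ cluster, Flrt1 was at 107 CPM both in Msr1 and Adam23 cells and in Gm10600 and Gatm cells. It was at 30.1 CPM in Wnt2 and Rspo3, 31.0 CPM in Ntn4 and Msr1 and 6.74 CPM in Nrg1 and Adgrg6 cells. Its ratio of the end layers thus does not give its profile between them. Nrp1 was nearly level, at 1565 and 1713 CPM.

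The genes most like each member were ranked by Pearson's r of log2(CPM + 20) over the 20 endothelial groups (cluster by library) of at least 50 cells, among 6156 genes. The groups come from 2 libraries, so a gene that differs between the libraries shares that difference with any like it. For Plxnc1 they were Tpbgl (r = 0.99), Dpp4 (0.99) and Dse (0.98), and for Sema6a Fam171a1 (0.97), Lrp6 (0.97) and Prickle1 (0.97). For Unc5b they included Arhgef28 (0.97) and Lamb1 (0.95), and for Robo4 Myo10 (0.97), Micall2 (0.96) and Bicd2 (0.93). Efnb2 was most like Dll4 (0.91), a Notch ligand that is also 1 of the portal landmarks, then Iffo2 (0.86) and Lama4 (0.85). Ephb4 was most like Klf9 (0.94), Tle1 (0.91) and Herpud1 (0.89), and Ntn4 most like Atp1b3 (0.95), Rfk (0.94) and Cd2ap (0.93). Sema3g was most like Tspan8 (0.92), Specc1 (0.90) and Slc6a6 (0.89), Efnb1 like Adgre5 (0.87), Lima1 (0.87) and Prex2 (0.85), and Plxnd1 like Epn2 (0.88), Ipmk (0.87) and Zcchc14 (0.83).

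In GRCm38 the members lie on 8 chromosomes, 3 of them on chromosome 10. By GENCODE vM21, Ephb4 spans chromosome 5 from 137350109 to 137378669, Plxnd1 chromosome 6 from 115954811 to 115995005, Efnb2 chromosome 8 from 8617434 to 8661242 and Robo4 chromosome 9 from 37401897 to 37415115. On chromosome 10, Unc5b spans 60762593 to 60831581, Ntn4 93640681 to 93747207 and Plxnc1 94790866 to 94944835. Sema3g spans chromosome 14 from 31217860 to 31230352, Sema6a chromosome 18 from 47235598 to 47368870 and Efnb1 chromosome X from 99136130 to 99148991.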

How the data were processed

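The deposited values are raw UMI counts per gene and barcode, made with Cell Ranger 3.0 against mm10 per the submitters' processing notes, with no normalization by the authors. Cells needed at least 500 genes, 1000 UMIs and at most 15% of UMIs from mt- genes. The automatic doublet threshold marked under 0.5% of barcodes, so the highest scores were removed, with the threshold set at the expected rates of 10.5% (sph/+) and 13.1% (sph/sph). With ties at the threshold, 10.8% and 13.5% of cells were removed. Both libraries were clustered together without integration (scanpy 1.11.5, leidenalg 0.10.2, resolution 1.0, 2000 variable genes, 30 components, 15 neighbours), with the members kept out. Counts were summed per library, layer or cluster and scaled to CPM. A gene was measured at 20 CPM in either group, 1 CPM was added before log2 ratios, and 2-fold was the call. Intervals are exact Poisson for levels, exact binomial for ratios and exact Clopper-Pearson for shares. UMIs of 1 mouse are not replicates. The ratio step was tested on simulated data.

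The members and gene lists were chosen with earlier results of these data known, and the numbers of markers that name a class were set after the data were seen. Clusters were called endothelial-like where 8 or more of the 13 pan-endothelial markers were each found in 25% of cells, with under 2 markers of another type among the top 10 genes. LSEC-like clusters had 9 of 12 LSEC markers and under 10 of 15 continuous markers, continuous vascular-like clusters at least 9 continuous and under 9 LSEC markers, lymphatic-like clusters 4 lymphatic and cycling clusters 3 proliferation markers. Named were the members, their measured partners, the 4 list genes with the largest ratio in each comparison, and the 3 genes most like each member. Robo1, the sph/sph cluster values of the partners and of Sema3a, and the finer clusters described were chosen after their values were seen. So were the sph/+ cluster values of Flrt1 and the inner-layer values of Flrt2. Alternatives to scaling, filters, landmarks and clustering are given in the closing section. A gene like Unc5b and the separate values of 1 sph/sph cluster are not reported here.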

Additional observations from a re-analysis of the deposited data

How the results depend on the processing

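The counts of members past 2-fold kept their values within 1.5 times under all alternatives except 2. With a floor of 50 CPM, Sema3g was no longer measured and 1 member was higher in sph/sph, in place of 2. Between the 2 clusters at the ends of the zone score, 1 member (Plxnc1) was lower on the portal side, in place of 0. Over the 13 alternatives of the library comparison no log2 ratio changed sign: those of Plxnc1 ran from -7.36 to -5.41, of Ntn4 from -4.61 to -3.96, of Sema6a from -2.44 to -2.22, of Unc5b from 3.49 to 4.37 and of Sema3g from 3.09 to 5.88, lowest with 5 CPM added. Efnb1 ran from -1.09 to -0.68 and lay within 2-fold without lymphatic-like cells, with cells weighted equally and between the main classes. Over the 12 alternatives of the zone comparison, Ntn4 ran from 2.67 to 3.36, Efnb2 from 2.44 to 2.88, Efnb1 from 2.08 to 2.76 and Plxnd1 from 0.81 to 1.17. Over the 7 alternatives to the clusters, 8 to 10 members were 2-fold apart between highest and lowest, and some highest clusters differed. Ephb4 was highest in lymphatic-like cells at resolution 0.5. Sema3g was highest in Igfbp3 and Esm1 cells at resolution 2.0 (279 CPM) and in Igfbp3 and Mal cells with sph/sph clustered alone (570 CPM). With sph/sph clustered alone, Unc5b (450 CPM), Robo4 (294 CPM) and Plxnd1 (594 CPM) were highest in Hspa1a and Esm1 cells. Leaving out unnamed cells, comparing the main classes, adding the Nrg1 and Adgrg6 cluster to the layers, leaving out an interferon-induced cluster, and leaving lymphatic-like or cycling cells out of the sph/sph clusters were alternatives chosen after seeing the data. No paired analysis was possible because each genotype has 1 library. The number of cells (79 and 156) limits the values of the central vein-like cluster, and without a second mouse no value shows how much animals differ.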
